A study of Mus musculus with 9 samples.

Results

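Runs of closely spaced open promoters were located in 1 list of accessible regions from hearts and pharyngeal mesoderm of E8.75 wild-type mouse embryos, which have 6 somites. A run, termed a promoter cluster here, was chosen by position alone. Regions whose center lay within 1000 bp of the assigned transcription start site (TSS) were sorted along each chromosome, neighbors separated by a gap of at most 12.5 kb were joined, and groups of 3 or more regions were kept. This gave 197 member regions in 62 clusters, out of 9083 promoter regions and 17164 distinct regions in all. The regions were measured by ATAC-Seq, a method that cuts and tags DNA not packed into nucleosomes with Tn5 transposase. The study profiled 3 groups of 3 libraries, from embryos labelled wt, Isl1-/- (lacking the LIM-homeodomain factor Isl1 in all cells) and Isl1Cre+/-/ Brg1fl/fl (Brg1, the ATPase of the SWI/SNF remodeler, deleted only in cells that expressed Isl1 or descended from them, with 1 Isl1 allele carrying Cre). The list analyzed here holds regions common to the 3 wt libraries as 1 set of positions. The libraries of the Isl1-/- and Isl1Cre+/-/ Brg1fl/fl embryos were not analyzed here. The list has no height and no value per library, so depth and replicate error are unknown and no result below has a test. Intervals are 95% Wilson intervals for shares and order-statistic intervals for medians, and they cover counting error over regions only. Members enter in groups of 3 or more, so intervals for the share of promoter regions in clusters are too narrow.

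Most mammalian promoters of broadly expressed genes lie in CpG islands, stretches of unmethylated DNA rich in the CG dinucleotide that tend to stay free of nucleosomes in many tissues. Such genes are unevenly spread, and in gene-dense neighborhoods the start of a gene can lie a few kilobases from the next one, or back to back with a gene on the opposite strand (a divergent or bidirectional promoter). Replication-dependent histone genes are a special case, with many short intronless copies packed side by side and switched on together in S phase. Factors known to bind such promoters include NF-Y at the CCAAT box, Sp and Klf proteins at the GC box, and ETS proteins at the core CCGGAAG.

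The sequences of several member regions are given as examples. All are printed 5′ to 3′ from the plus strand of the mm9 genome, with motif matches on either strand in capitals. Only stretches free of annotated exons are shown, at most 300 bp near the region's center. The first set holds promoters of unrelated genes from the clusters with the most regions and from the shortest cluster, picked for their motif matches after these were seen. In the same clusters the exon-free stretches of the first Rab13 region, Jtb, Eef1g and Rpl35 held none of the motifs searched and are not shown. That of Rpl35 was only 76 bp long and began at the first base of its region. The motif shares given below count the 300 bp at the center instead, exons included. There Rpl35 held the CCAAT box, the ETS core and the GC box. The first Rab13 region and Jtb each held the YY1 core there, and Eef1g held no motif. The set shows CCAAT boxes (reverse ATTGG) in the regions of Rab13, Creb3l4, B3gat3, Tut1 and 2610318N02Rik. Rom1 and Arpc5l show GC boxes (GGGCGG, reverse CCGCCC) with ETS cores (CCGGAAG, reverse CTTCCGG) and no CCAAT box. Slc39a1 holds 1 CCAAT box and 1 GC box. Rab13 and Tut1 also hold 1 GC box each, and B3gat3 holds 1 ETS core.
Rab13, chr3:90024409-90024708: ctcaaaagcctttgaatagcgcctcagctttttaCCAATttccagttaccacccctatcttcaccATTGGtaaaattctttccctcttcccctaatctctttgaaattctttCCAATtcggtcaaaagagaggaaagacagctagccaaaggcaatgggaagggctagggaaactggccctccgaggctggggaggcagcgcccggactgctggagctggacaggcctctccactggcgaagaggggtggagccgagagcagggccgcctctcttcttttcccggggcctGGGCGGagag
Creb3l4, chr3:90047435-90047734: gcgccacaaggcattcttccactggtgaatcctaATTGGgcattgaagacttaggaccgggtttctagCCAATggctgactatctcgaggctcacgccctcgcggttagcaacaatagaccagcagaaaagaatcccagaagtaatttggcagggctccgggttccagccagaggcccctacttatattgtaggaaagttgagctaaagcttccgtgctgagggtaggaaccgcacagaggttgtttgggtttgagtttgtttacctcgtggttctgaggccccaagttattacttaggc
Slc39a1, chr3:90051794-90052093: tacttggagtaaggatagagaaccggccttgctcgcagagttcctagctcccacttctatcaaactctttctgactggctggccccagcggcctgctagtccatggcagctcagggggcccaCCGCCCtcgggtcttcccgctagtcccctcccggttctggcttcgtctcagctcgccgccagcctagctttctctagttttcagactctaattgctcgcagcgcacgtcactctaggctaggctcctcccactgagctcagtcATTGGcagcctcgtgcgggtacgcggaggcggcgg
B3gat3, chr19:8994564-8994863: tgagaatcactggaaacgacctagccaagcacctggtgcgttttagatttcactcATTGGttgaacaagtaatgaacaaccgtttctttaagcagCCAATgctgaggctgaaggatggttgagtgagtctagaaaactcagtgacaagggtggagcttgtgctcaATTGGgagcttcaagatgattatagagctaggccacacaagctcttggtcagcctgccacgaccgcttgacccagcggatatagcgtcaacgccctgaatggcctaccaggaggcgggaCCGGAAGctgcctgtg
Rom1, chr19:9003847-9004146: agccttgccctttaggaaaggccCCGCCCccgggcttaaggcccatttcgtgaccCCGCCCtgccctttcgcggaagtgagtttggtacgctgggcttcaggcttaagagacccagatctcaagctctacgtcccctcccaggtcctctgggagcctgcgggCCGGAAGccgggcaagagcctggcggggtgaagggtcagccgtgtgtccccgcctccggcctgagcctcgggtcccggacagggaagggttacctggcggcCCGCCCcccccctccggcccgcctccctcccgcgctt
Tut1, chr19:9028040-9028339: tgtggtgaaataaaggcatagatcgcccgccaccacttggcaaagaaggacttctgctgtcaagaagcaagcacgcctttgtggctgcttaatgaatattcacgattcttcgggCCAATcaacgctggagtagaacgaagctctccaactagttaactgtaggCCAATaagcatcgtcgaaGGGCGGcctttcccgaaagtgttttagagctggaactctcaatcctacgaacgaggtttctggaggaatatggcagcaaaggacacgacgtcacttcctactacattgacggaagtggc
2610318N02Rik, chr16:17125200-17125499: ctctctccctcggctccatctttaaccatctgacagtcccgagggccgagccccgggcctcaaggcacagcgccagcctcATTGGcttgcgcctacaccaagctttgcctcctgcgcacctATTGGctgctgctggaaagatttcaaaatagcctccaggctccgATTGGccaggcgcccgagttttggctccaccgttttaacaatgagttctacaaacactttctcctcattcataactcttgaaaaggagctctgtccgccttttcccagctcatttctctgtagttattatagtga
Arpc5l, chr2:38863296-38863595: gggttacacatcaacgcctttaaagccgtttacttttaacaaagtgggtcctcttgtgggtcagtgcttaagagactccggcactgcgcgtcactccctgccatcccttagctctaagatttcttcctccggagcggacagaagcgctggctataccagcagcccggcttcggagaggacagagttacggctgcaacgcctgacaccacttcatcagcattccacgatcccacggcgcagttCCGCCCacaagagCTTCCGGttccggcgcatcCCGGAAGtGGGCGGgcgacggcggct

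The second set holds 3 histone promoters, shown because they hold TATA boxes, which the stretches of the first set do not. These 3 were picked after their values were seen. The stretches upstream of Hist1h2bg and Hist1h2bb hold 1 and 2 CpG dinucleotides, or 0.571 and 0.855 per 100 bp, against 3.33 to 8 in the first set, while Hist3h2ba, with 3.67, lies in that range. Their whole regions, exons included, hold 5.55 per 100 bp at Hist1h2bg, 4.82 at Hist1h2bb and 5.22 at Hist3h2ba. The median of all members is 5.54. Each of the 3 carries CCAAT boxes and at least 1 TATA box (TATAAA, reverse TTTATA), and Hist3h2ba also has 2 GATA matches (AGATAA).
Hist3h2ba, chr11:58762113-58762412: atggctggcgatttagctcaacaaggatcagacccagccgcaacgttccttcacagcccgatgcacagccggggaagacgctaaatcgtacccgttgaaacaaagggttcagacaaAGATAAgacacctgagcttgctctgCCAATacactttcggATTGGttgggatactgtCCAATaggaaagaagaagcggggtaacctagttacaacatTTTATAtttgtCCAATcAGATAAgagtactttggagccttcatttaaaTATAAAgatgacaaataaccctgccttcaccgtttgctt
Hist1h2bg, chr13:23663090-23663264: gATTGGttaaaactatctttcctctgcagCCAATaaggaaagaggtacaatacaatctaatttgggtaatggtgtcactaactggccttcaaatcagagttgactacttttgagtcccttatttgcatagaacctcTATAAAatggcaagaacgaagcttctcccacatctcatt
Hist1h2bb, chr13:23838369-23838602: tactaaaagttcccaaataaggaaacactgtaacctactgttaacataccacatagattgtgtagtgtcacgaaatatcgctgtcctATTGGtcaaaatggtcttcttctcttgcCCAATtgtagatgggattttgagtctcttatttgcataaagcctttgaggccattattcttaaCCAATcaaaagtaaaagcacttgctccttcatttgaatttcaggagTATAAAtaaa

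The third set belongs to the 2 microRNA genes among the members, Mir210 and Mir130b. The assigned start of each is that of its RefSeq transcript, and whether transcription starts there was not tested. Without the region of Mir210, its group would fall below 3 regions. Without that of Mir130b, the regions of Ppil2 and 2610318N02Rik would not be joined. The stretch of Mir210 was also picked after its values were seen. Mir210 encodes the hypoxia-responsive microRNA miR-210, and its region of 1440 bp, centered at -427 bp from the assigned start, held 2 CCAAT boxes and 2 GC boxes in the stretch shown. The mature sequences are from RefSeq (GRCm38.p6), with the seed, bases 2 to 8, in capitals. The 4 mature arms have 4 different seeds.
Mir210, chr7:148407670-148407969: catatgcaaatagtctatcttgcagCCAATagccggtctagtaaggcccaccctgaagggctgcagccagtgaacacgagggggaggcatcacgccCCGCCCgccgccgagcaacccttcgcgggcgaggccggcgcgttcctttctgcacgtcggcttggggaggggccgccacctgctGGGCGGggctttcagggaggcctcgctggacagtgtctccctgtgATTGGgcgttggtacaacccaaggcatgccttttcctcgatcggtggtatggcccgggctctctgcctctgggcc
mmu-miR-210-3p: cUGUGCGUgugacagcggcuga
mmu-miR-210-5p: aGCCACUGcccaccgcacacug
mmu-miR-130b-3p: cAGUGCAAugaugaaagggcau
mmu-miR-130b-5p: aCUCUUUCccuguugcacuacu

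Clusters were small and dense. Of the 62, 54 held 3 regions, 6 held 4, 1 held 5 and 1 held 6. The 197 regions were 2.17% of promoter regions (interval 1.89 to 2.49%) and 1.15% of all regions, and they were assigned to 191 genes on 18 chromosomes. A further 848 promoter regions lay in 424 groups of 2, and 8038 were alone. From first to last base a cluster measured 19656.5 bp at the median, from 11420 to 47879 bp. All spans together came to 1311059 bp, or 0.0512% of the sequenced genome, and held 15 member regions per 100 kb, against 0.355 promoter regions per 100 kb over the genome. Regions covered 18.8% of the span, from 10.7% in the cluster of Tmem132a, Tmem109 and Prpf19 to 35.6% in that of Wdr38, Rpl35 and Arpc5l. The density and the gap follow from the rule and are given as a description.

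The largest cluster lay on chromosome 3 (chr3:90017164-90059033) with 6 regions over 41870 bp. Its regions were assigned to Rab13 (a small GTPase of membrane traffic and tight junctions), Jtb and Creb3l4 (a transmembrane bZIP factor). The others were assigned to Slc39a1 (a zinc importer) and Crtc2 (a coactivator of CREB). Rps27 and Gm10973 also started inside this cluster, each with a region centered within 1 kb of a start. Here and below, the genes named for a cluster are those assigned to its regions. Rab13 held 2 regions, of 1086 and 1166 bp, separated by 5788 bp. The first had 5.16 CpG per 100 bp and coding starts on both strands within 1 kb, and the second, centered in an intron, had 2.83. Among the 6 regions CpG ran from 2.35 at Creb3l4 to 6.42 at Jtb. All members had a median of 5.54, with quartiles of 4.27 and 6.70. The regions were 892 to 1424 bp wide, and the widest was that of Crtc2.

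The cluster of 5 regions lay on chromosome 19 (chr19:8994284-9042162) and was the longest, at 47879 bp. Its regions were assigned to B3gat3 (a glucuronyltransferase that completes the linker of proteoglycans), Rom1 (a photoreceptor disc protein), Mta2, Tut1 and Eef1g. Mta2 is a subunit of the NuRD deacetylase complex, and Tut1 a terminal uridylyltransferase acting on U6 RNA. Eef1g is a subunit of translation elongation factor 1. The Rom1 region had coding starts on both strands within 1 kb. Eml3, on the plus strand, also started inside this cluster, with a region centered within 1 kb of a start. GC content ran from 49.1% at Tut1 to 68.0% at Rom1, and CpG from 4.10 per 100 bp at Tut1 to 7.99 at Mta2. Of the 5 assigned genes, B3gat3, Mta2, Tut1 and Eef1g were transcribed from the plus strand and Rom1 from the minus strand.

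The 3 clusters named next were those of the shortest span among the 6 with 4 regions. On chromosome 16 (chr16:17110863-17132978) the regions of Ppil2 (a peptidylprolyl isomerase with a U-box), Mir130b, 2610318N02Rik and Sdf2l1 (a chaperone partner of the endoplasmic reticulum) all belonged to genes on the minus strand. The regions of Mir130b (816 bp) and 2610318N02Rik (898 bp) were 58 bp apart, the smallest gap of all. On chromosome 5 (chr5:138696367-138722210) the cluster held Lamtor4 (part of the Ragulator complex on lysosomes), 6330418K02Rik, Gal3st4 (a galactose sulfotransferase) and Gpc2 (a glypican of the nervous system), with CpG from 1.58 per 100 bp at Gal3st4 to 7.01 at 6330418K02Rik. On chromosome 7 (chr7:13594279-13624312) Zbtb45, Trim28 (the KRAB zinc-finger corepressor), Chmp2a (an ESCRT-III subunit) and Ube2m (the NEDD8-conjugating enzyme) had the most covered bases of any cluster, 8106 bp or 27% of the span. Its 4 regions were 1484 to 2674 bp wide, and all exceeded the member median of 1166 bp.

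**Figure D1:**
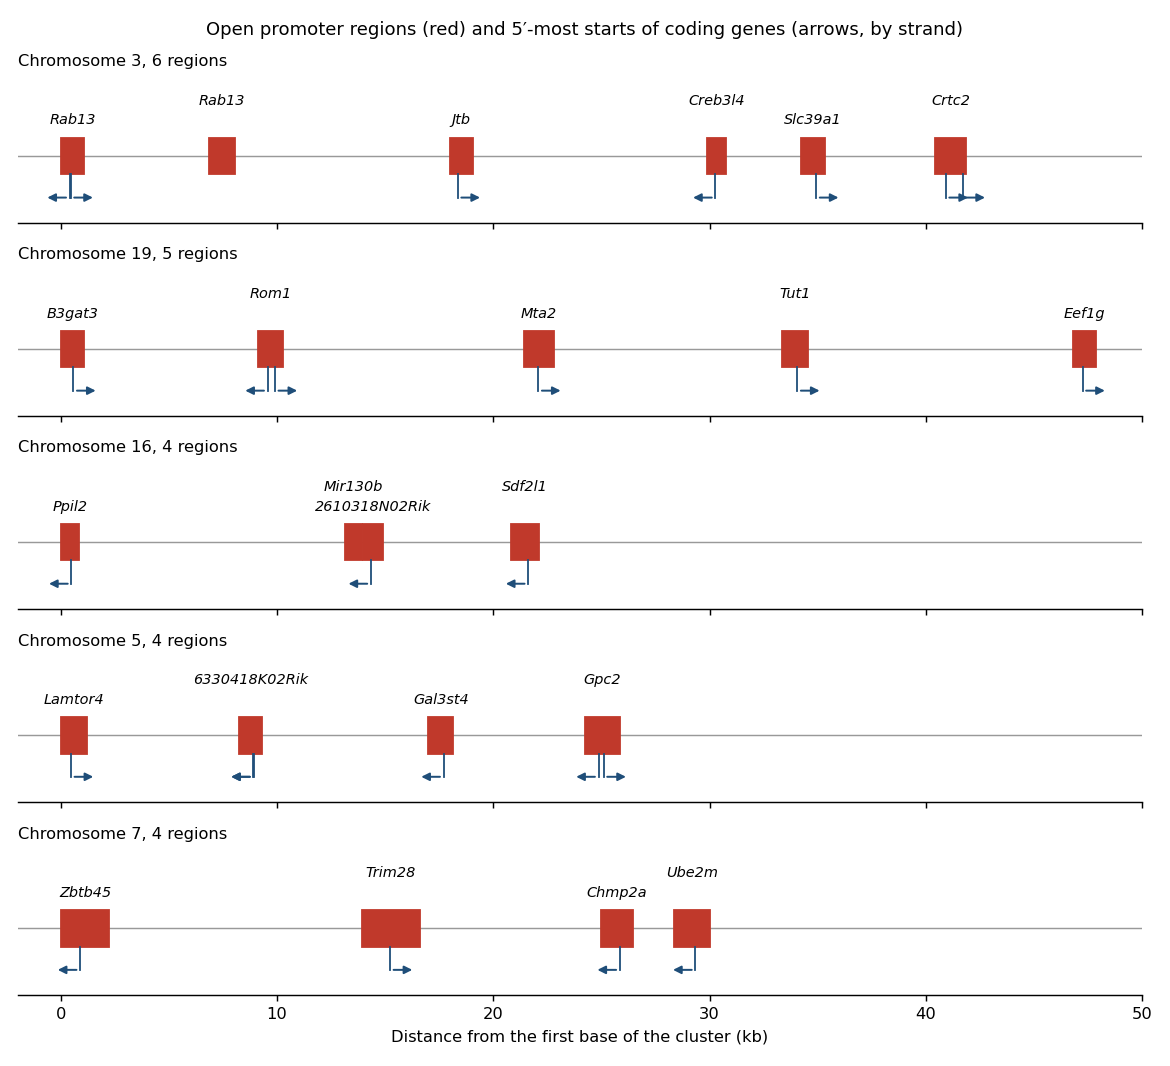
Maps of the 5 clusters with the most regions, with ties at 4 regions settled by the shorter span. The x axis gives the distance in kb from the first base of each cluster, red boxes are the accessible regions drawn to scale with the assigned gene above, and arrows are the 5′-most annotated starts of coding genes pointing in the direction of transcription. The 2 regions of Mir130b and 2610318N02Rik, 58 bp apart, appear as 1 block, and the chromosome 7 cluster has the widest boxes, up to 2674 bp at Trim28.

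The shortest cluster was chr2:38853016-38864435, 11420 bp with Wdr38, Rpl35 (a protein of the large ribosomal subunit) and Arpc5l (an Arp2/3 complex subunit). Its regions were 1247, 1374 and 1443 bp wide, and those of Rpl35 and Arpc5l were divergent and 1563 bp apart. The next shortest, 13030 bp on chromosome 8, held Asna1 (the ATPase that targets tail-anchored proteins), 2310036O22Rik and Tnpo2 (a nuclear importin). The divergent regions of Asna1 and 2310036O22Rik were 532 bp apart, with 3.82 and 7.49 CpG per 100 bp. The third, 14435 bp on chromosome 7, held Rassf7, Mir210 and Phrf1. CpG in this cluster was 4.13 per 100 bp at Rassf7, 3.96 at Mir210 and 8.47 at Phrf1. On chromosome 4, Mad2l2 (a subunit of DNA polymerase zeta and of shieldin) held 2 regions of 2091 and 1530 bp beside Fbxo6 and Fbxo44, paralogous F-box proteins, and this cluster had 6583 covered bases.

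Member regions differed widely in width. U2af2 (the large subunit of splicing factor U2AF) had the widest at 2901 bp, followed by Trim28 at 2674 bp and Plxnb1 (a semaphorin receptor) at 2401 bp. Itga7 (an integrin chain that binds laminin), Emilin1 (an extracellular matrix glycoprotein) and Pycrl (an enzyme of proline synthesis) had the narrowest at 665, 693 and 710 bp. For CpG, the lowest values were 1.17 per 100 bp at 4933413G19Rik, 1.39 at Amt and 1.44 at Emilin1, and the highest 13.1 at Zmynd19, 11.2 at Nr2f6 and 10.4 at Dvl1. Within a cluster the highest and lowest CpG differed by 3.06 per 100 bp at the median, from 0.776 to 9.34. Widths within a cluster differed by 492 bp at the median. Differences between clusters held 27.5% of the CpG variance and 42.2% of the width variance of members, where unrelated members would give 31.1%. These shares were not tested.

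Member regions were narrower than lone promoter regions. The median width was 1166 bp (interval 1112 to 1214, n = 197), against 1311 bp (1302 to 1323, n = 8038) for lone promoter regions and 1189.5 bp (1159 to 1212, n = 848) for regions in groups of 2. Only 11 members (5.58%) exceeded 2000 bp, against 850 lone regions (10.6%). On each of the 8 chromosomes with at least 10 members, the member median was below that of the lone regions there, with differences from -11 bp on chromosome 7 to -302 bp on chromosome 3. Width enters the rule, because a narrower region leaves a longer gap to its neighbor. With gaps taken from center to center the difference was -147 bp, against -145 bp. Width can also vary with the read depth of a locus, which the list does not give, and this was not tested. Among the 39 members formed when only regions of at least 1123 bp (the median of all regions) were joined, the difference was 18 bp in the other direction, with an interval of -121 to 245 bp.

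Members also held fewer CpG dinucleotides than lone promoter regions. The median was 5.54 per 100 bp (interval 5.21 to 5.87), against 5.98 (5.92 to 6.03), and 5.65 (5.46 to 5.82) in groups of 2. Distal regions, over 1 kb from a TSS, had 1.35. The difference was greater in the 300 bp at the center, with 7.67 CpG per 100 bp (7 to 8.33) in members and 9 in lone regions, and GC content there of 62% against 66.7%. The member median was the lower on 7 of the 8 chromosomes with at least 10 members, and on chromosome 11 it was higher by 0.449. The upper quartile differed more than the lower, at 6.70 against 7.55 and 4.27 against 4.52, and regions under 4 CpG per 100 bp were 40 of the members (20.3%) and 1447 of the lone regions (18%). With only regions of at least 1123 bp joined, the CpG difference between members and lone regions was -0.213 per 100 bp (interval -1.07 to 0.451), and with groups of 4 or more it was -0.488 (-1.88 to 0.120), against -0.441 (-0.770 to -0.107) as reported. The 11 histone regions had median CpG of 5.55 and GC of 51.1%, and without them the median of the members was 5.53 and 57.6%.

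**Figure D2:**
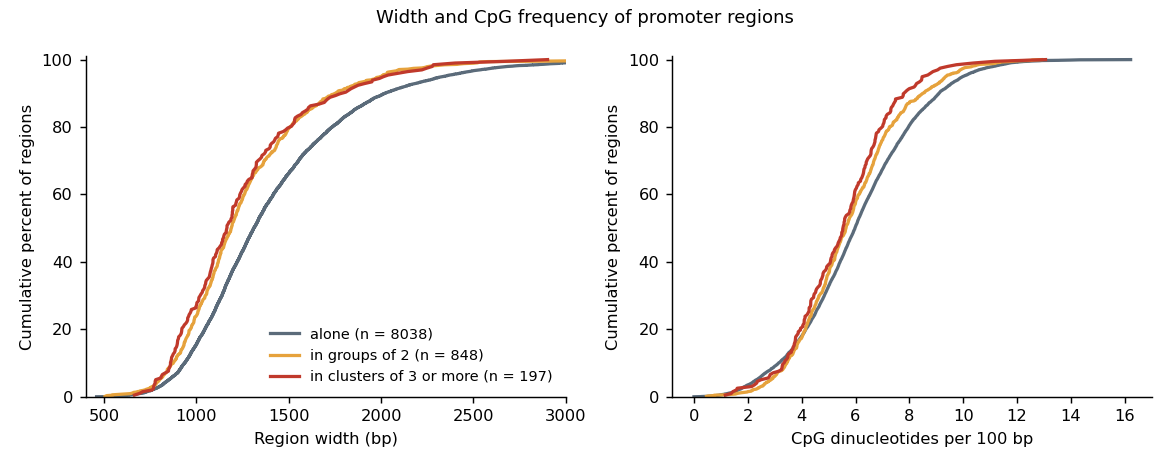
Cumulative distributions of region width in bp (left) and of CpG dinucleotides per 100 bp (right) for promoter regions in clusters of 3 or more, in groups of 2 and alone. The curves for clusters and groups of 2 lie to the left of the curve for lone regions in width, with medians of 1166, 1189.5 and 1311 bp, and the CpG curves separate above their lower ends.

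The share of promoter regions in clusters ran from 0 to 4.62% by chromosome. Chromosome 9 had the highest share of its promoter regions in clusters, 24 of 520 (4.62%, interval 3.12 to 6.78%), followed by chromosome 19 with 11 of 253 (4.35%), chromosome 7 with 25 of 654 (3.82%) and chromosome 3 with 18 of 484 (3.72%). The lowest shares above 0 were on chromosomes 1 and 6, with 3 of 581 (0.516%) and 3 of 470 (0.638%). None of 328 promoter regions on chromosome 12 or of 367 on chromosome X was a member. The upper Wilson bounds there, 1.16% and 1.04%, treat regions as independent. Members enter only in groups of 3 or more, so these bounds and the intervals by chromosome are too narrow. Whether the chromosomes differ was not tested. Chromosome Y had 0 promoter regions in the list.

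Of the 62 clusters, 17 had another cluster within 1 Mb and formed 7 runs. No share for other promoter regions was computed beside this count, so it is a description only. A run of 4 clusters with 12 regions fell within 1542.9 kb of chromosome 9, from Rassf1 and Tusc2 (tumor suppressor candidates) and Hyal2 (a hyaluronidase family member), through Nicn1, Amt and Rhoa (the small GTPase of the actin cytoskeleton) and Impdh2, Ndufaf3 and Wdr6, to Atrip, Tma7 and Plxnb1. A run of 3 clusters, also with 12 regions, fell within 1090.7 kb of chromosome 3, and they comprised Clk2, Scamp3 and Fam189b, then Flad1, Shc1 and Pygo2 (a nuclear coactivator of Wnt signaling), then the cluster of Rab13. On chromosome 13 the 2 histone clusters of Hist1h2bg and Hist1h2bb lay within 192.4 kb.

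**Figure D3:**
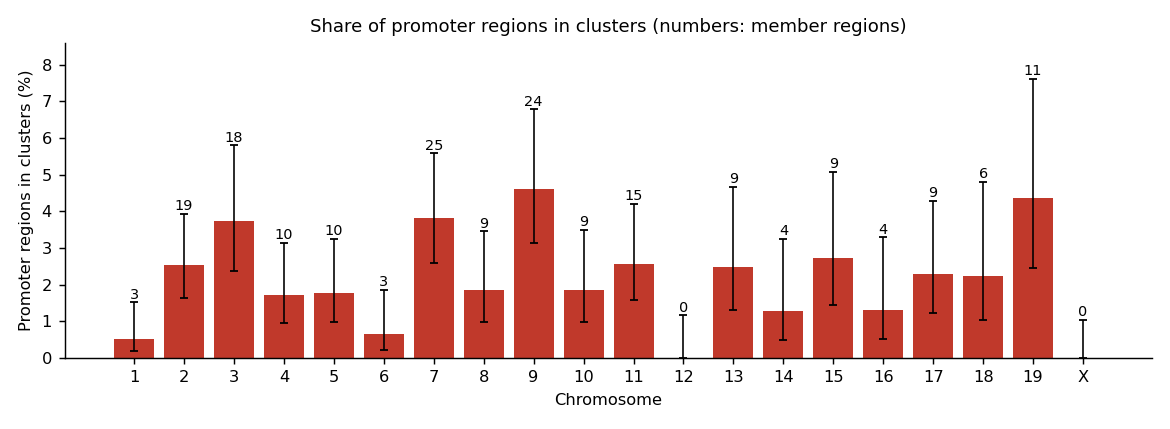
Percent of the promoter regions of each chromosome that belong to a cluster, with the number of member regions above each bar. Error bars are 95% Wilson intervals, which treat regions as independent and are too narrow for members that enter in groups. Chromosome 9 (4.62%) and chromosome 19 (4.35%) have the tallest bars, and chromosomes 12 and X have none.

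Neighboring genes in a cluster were most often read in the same direction, as were neighbors farther apart, while groups of 2 were mostly divergent. Of 135 neighboring pairs, 6 were 2 regions of the same gene, and 127 of the others had a strand for both genes. These were tandem (same strand) in 73 pairs (57.5%, interval 48.8 to 65.7%), divergent in 36 (28.3%, 21.2 to 36.7%) and convergent in 18 (14.2%, 9.16 to 21.3%). In groups of 2, 211 of 373 pairs were divergent (56.6%, 51.5 to 61.5%), 34.9% tandem and 8.58% convergent. Among 8197 neighboring promoter regions too far apart to be joined, 23% were divergent, 51.5% tandem and 25.4% convergent. Consecutive pairs of a cluster share a gene and cannot both be divergent, while a group of 2 holds only 1 pair. The divergent shares of clusters and of groups of 2 thus have different upper limits and are not directly comparable. The intervals treat overlapping pairs as independent. In 14 clusters every gene assigned to a member region lay on 1 strand, as in the chromosome 16 cluster of Ppil2. Further coding genes that start inside a cluster were not counted. Some of these lay on the opposite strand, such as Rrnad1 in the cluster of Hdgf and Tcta in that of Rhoa. The median gap hardly differed by orientation, at 8144 bp for divergent, 8053 bp for tandem and 7945.5 bp for convergent pairs of a cluster. Closest among divergent pairs of a cluster were Asna1 with 2310036O22Rik and Rpl35 with Arpc5l, and the starts of these pairs were 1555 and 3008 bp apart.

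In clusters the share of shared start regions was similar for starts on both strands, and higher than in lone regions for 2 or more genes. Coding starts on both strands lay within 1 kb of the center in 25 members (12.7%, interval 8.75 to 18.1%), against 11.7% in groups of 2 and 9.90% of lone regions, and these intervals overlap. At least 2 coding genes started within 1 kb of 34 members (17.3%, 12.6 to 23.1%). The share was 12.3% (10.2 to 14.6%) in groups of 2 and 10.4% (9.76 to 11.1%) of lone regions. The interval of members overlapped that of groups of 2 but not that of lone regions. The 25 included Rhoa, Shc1 (an adaptor of receptor tyrosine kinases), Ilk (integrin-linked kinase), Lats1 (a Hippo pathway kinase), Rom1, Gpc2 and, of the histones, Hist1h2ai, Hist1h2bg and Hist1h2bf. The assigned start lay inside the region for 193 of 197 members (98.0%), much as for lone regions (97.6%). The center lay downstream of that start in 50.3% of members (43.3 to 57.2%) and 57.9% of lone regions (56.8 to 59.0%). Centers fell in an untranslated exon in 76 members, in intergenic DNA in 63, in coding exons and in introns in 23 each, and in exons of noncoding transcripts in 12.

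CCAAT boxes and ETS cores had higher shares in clusters than in lone promoter regions, while GC boxes had the same share within the interval. Exact matches on both strands were counted in 300 bp at the center of each region. CCAAT was found in 85 members (43.1%, interval 36.4 to 50.1%), in 36.8% of regions in groups of 2 and in 30.9% of lone regions (2487 of 8038). In distal regions the share was 32.7%. CCGGAAG was found in 46 members (23.4%, 18 to 29.7%), 22.9% of groups of 2, 15.3% of lone and 3.35% of distal regions. GGGCGG was found in 69.5%, 68.5%, 69.3% and 19.3%. In a window of 200 bp CCAAT was found in 32.0% of members and 23.5% of lone regions, and CCGGAAG in 16.8% and 11.2%. A lower GC content at the center went with the members, 62% against 66.7%, and its part in the CCAAT share was not tested. The CCAAT box stood with a GC box in 62 members and with an ETS core in 13.

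TATA boxes were found in 15 members (7.61%, 4.67 to 12.2%), against 2.94% of lone regions and 2.95% in groups of 2. Of these 15, 6 were histone regions (Hist3h2ba, Hist1h2bg, Hist1h2bf, Hist1h2bb, Hist1h3b and Hist1h3a), and without histone genes the share was 9 of 186 (4.84%, 2.57 to 8.94%). The GATA motif was found in 9 members (4.57%), of which 4 were histone regions, and in 3.23% of lone and 14.5% of distal regions. The cores of NRF1 (GCATGCGC, 4.06% of members and 3.88% of lone regions), YY1 (AAGATGGC, 4.57% and 4.12%), CREB (TGACGTCA, 2.03% and 2.72%) and Kaiso-type factors (CTCGCGAG, 1.52% and 1.69%) had similar shares. Of the members, 19 held none of the 9 motifs. The CREB and Kaiso-type cores read the same on both strands, and none of the 9 motifs is part of another. A match describes the sequence only and does not show that a factor was bound.

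**Figure D4:**
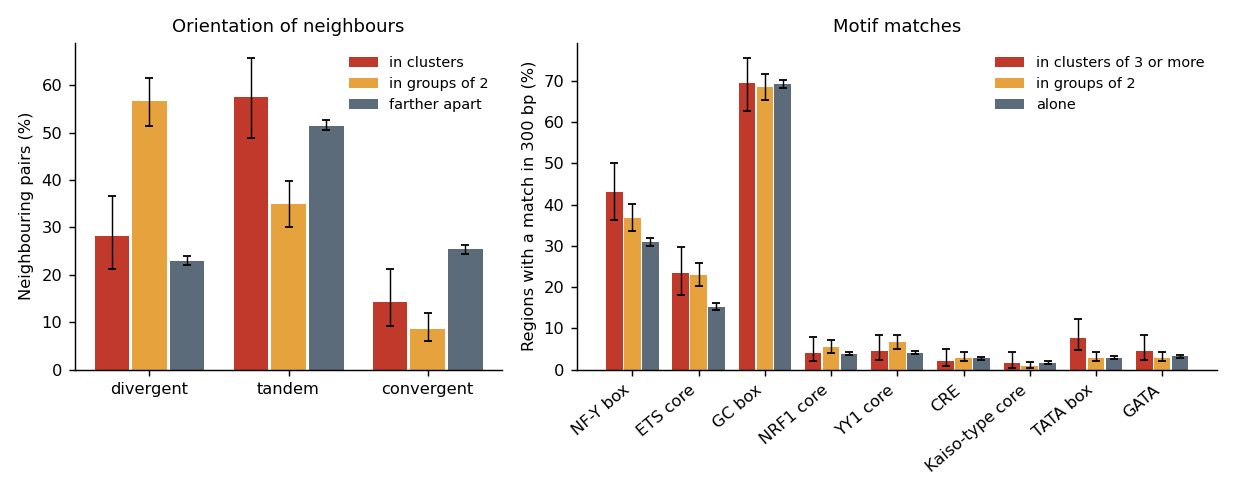
Left, percent of neighboring promoter pairs of different genes that are divergent, tandem or convergent, in clusters, in groups of 2 and farther apart. Right, percent of regions with at least 1 match to each motif in 300 bp at the center. Error bars are 95% Wilson intervals. Divergent pairs reach 56.6% in groups of 2 and 28.3% in clusters, where consecutive pairs share a gene and cannot both be divergent. CCAAT matches reach 43.1% in clusters and 30.9% in lone regions.

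Replication-dependent histones had the highest share of any gene list. Of 19 histone genes with a promoter region, 11 were in clusters (57.9%, interval 36.3 to 76.9%), against 191 of all 8900 genes with a promoter region (2.15%). These genes are annotated as arrays of neighboring copies, so their closeness is a property of the genome. They lay in 4 clusters. All 9 members on chromosome 13 were histone genes, namely Hist1h2ai, Hist1h2bm and Hist1h4j (gaps of 4110 and 11305 bp), Hist1h2bg, Hist1h2bf and Hist1h2be (1395 and 10511 bp), and Hist1h2bb, Hist1h3b and Hist1h3a (3381 and 7788 bp). Hist3h2ba and Hist3h2a on chromosome 11 lay beside Rnf187. Histone regions were 1514 bp wide at the median, from 777 bp at Hist1h2be to 2221 bp at Hist1h3a, against 1157 bp for the other members. CCAAT was found in 7 of 11 and CCGGAAG in 0 of 11. The 9 histone promoter regions outside clusters were alike in width (median 1520 bp), CpG (5.56) and CCAAT (5 of 9). Histone copies are near-identical in their coding parts, so reads from a copy can be placed on another one, and single regions here are uncertain.

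The other lists had few members each. Of the cytoplasmic ribosomal protein genes, 3 of 51 with a promoter region were in clusters (Rpl17, Rpl29 and Rpl35), and Rplp2, also a member, has a symbol that this list does not cover. Mitochondrial ribosomal proteins gave 3 of 45 (Mrpl24, Mrpl41 and Mrps18b), splicing factors 3 of 38 (Prpf6, Prpf19 and U2af2) and translation factors 3 of 45 (Eef1g, Eif4a1 and Eif5a). Ubiquitin enzymes gave 4 of 108 (Ube2m, Usp21, Fbxo6 and Fbxo44), vesicle traffic 3 of 114 (Rab13, Rab3d and Chmp2a), and respiratory chain genes 2 of 60, Ndufv2, a complex I subunit, and Ndufaf3, an assembly factor of that complex. Cyc1, also a member, has a symbol that the respiratory chain list does not cover. The vesicle traffic list does not cover the members Stx5a, Sec22c, Use1, Scamp3 and Scamp4. Each count holds only for the listed symbols and for genes assigned to a member region. Rps27 in the cluster of Rab13 and Hars beside Hars2, for example, also started inside a cluster near a region. Neither was assigned to it, so the counts leave them out. Aminoacyl-tRNA synthetases gave 1 of 27, Hars2. Zinc-finger genes gave 6 of 320 (1.88%) and genes of transmembrane proteins and solute carriers 6 of 256 (2.34%), both near the 2.15% of all genes. The lower interval bounds of the 4 lists of ribosomal, mitochondrial ribosomal, splicing and translation genes, 2.02 to 2.72%, lay near that value, so these short lists do not set a share far above it. Noncoding RNA genes gave 3 of 53 (Mir130b, Mir210 and Scarna2), and 3 further noncoding members, 6330418K02Rik, A630066F11Rik and Vaultrc5, have symbols that this list does not cover. Proteasome subunits (30 genes), RNA polymerase and Mediator subunits (34), and DNA replication and repair genes (68) had none, which allows up to 11.4%, 10.2% and 5.35% by the upper Wilson bound. The replication and repair list does not cover Mad2l2, a member and a subunit of DNA polymerase zeta, so its bound holds for the listed symbols only.

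No gene of the tissue-specific lists was a member. The list of cardiac regulators had 0 of 10 genes with a promoter region in clusters and that of contractile genes 0 of 4, which the Wilson interval limits to at most 27.8% and 49.0%. Endothelial and endocardial genes gave 0 of 2, blood genes 0 of 1, neural genes 0 of 5 and Hox genes 0 of 1. These lists are too short to show a share below the 2.15% of all genes.

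Most clusters joined genes of different families. Counting the genes assigned to member regions, in 54 of the 62 no pair had the same leading letters in its symbol. Further genes that start inside a cluster were not counted, such as Zbtb26 beside Zbtb6 and Hars beside Hars2. The other 8 were the 4 clusters with histone genes, Fbxo6 with Fbxo44, Zfp784 with Zfp580, Sertad3 with Sertad1, and Tmem132a with Tmem109, the last sharing letters but no family. In 6 clusters a gene held 2 regions, namely Rab13, Rabgap1, Mad2l2, Sertad3, Fam214b and Plcd1, and in 3 of these (Sertad3, Fam214b and Plcd1) fewer than 3 genes remained. The 2 regions of Sertad3 were 59 bp apart and had the same assigned start, with centers at -370 and 821 bp from it.

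Nearly every coding gene that starts inside a cluster was open, that is, had a region centered within 1 kb of an annotated start. This held for 216 of 230 genes (93.9%), against 9789 of 22359 coding genes overall (43.8%, interval 43.1 to 44.4%). The rule fixes most of this difference. In 50 of the 62 clusters every coding gene was open. The 14 genes that were not were Samd10, Phkg1 (the muscle phosphorylase kinase subunit), Ccdc106, Lrdd, Exoc3l, Dalrd3, Cd68 (a macrophage marker), Hist1h3h, Hist1h3d, Hist1h4d, Hist1h4b, Gm17658, Rps6-ps1 and Arrdc5. CpG around their starts was 4.35 per 100 bp at the median, against 6.10 for the open genes. It was 1.5 at Cd68, which lies with Mpdu1, Eif4a1 (an RNA helicase of translation initiation) and Senp3, and 7.10 at Samd10.

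Among annotated coding genes, those in groups of 2 were open more often than genes alone, and those in groups of 3 or more less often. When the starts of all coding genes were joined by the same distance, 43.0% of 14678 genes alone were open, 50.5% of 5118 in groups of 2, 36.2% of 2093 in groups of 3 to 5, and 27.4% of 470 in groups of 6 or more. Of 679 annotated groups of 3 or more genes, 81 had every gene open, 134 had 3 or more open, and 248 had none. Genes in such groups were open less often than lone genes in each band of CpG, for example 50% against 66.5% at 4 to 6 CpG per 100 bp and 59.5% against 76.5% at 10 or more. Without olfactory, vomeronasal and trace-amine receptor genes the shares were 46.1% for genes alone, 53.5% in groups of 2, 39.3% in groups of 3 to 5 and 28.2% in groups of 6 or more.

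**Figure D5:**
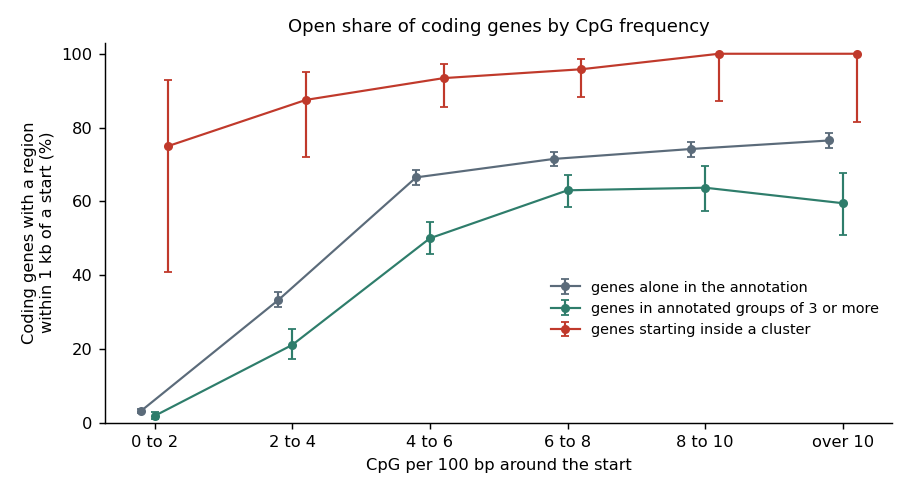
Percent of coding genes with a region within 1 kb of a start (y axis) by CpG dinucleotides per 100 bp around the start (x axis), for genes alone in the annotation, in annotated groups of 3 or more, and starting inside a cluster of open promoters. Error bars are 95% Wilson intervals. Annotated groups lie below lone genes in each band, for example 50% against 66.5% at 4 to 6, and genes inside clusters lie above both, as the rule makes them.

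Gaps under 4000 bp were less frequent per kb than longer ones. Whether this reflects the spacing of annotated starts, the chromatin or the way the peaks were made was not tested, and the list holds no reads. The lower frequency bears on each gap and pair value given here. Annotated coding starts gave 1536 neighboring pairs under 2000 bp apart and 416 at 2000 to 4000 bp. At 4000 to 8000 bp they gave 1085 pairs, and at 8000 to 16000 bp 2536. Among neighboring promoter regions there were 23.8 gaps per kb of gap length under 4000 bp (95 in all), against 54.6 per kb from 4000 bp to 12.5 kb (464), and then 59.2 per kb from 20000 to 25000 bp. Within the short gaps, 33 were under 1000 bp and 13 from 1000 to 2000 bp. Over all regions there were 110 gaps under 1000 bp, 57 of 1000 to 2000 bp, 52 of 2000 to 3000 bp, 79 of 3000 to 4000 bp and 151 of 4000 to 5000 bp. Among neighboring coding starts 2000 to 4000 bp apart, both were open in 35 of 416 pairs (8.41%, interval 6.11 to 11.5%), against 13.3% of pairs at 4000 to 8000 bp (11.4 to 15.4%) and 22% at 32000 to 64000 bp. Where both starts had at least 6 CpG per 100 bp the shares were 26.7% (12 of 45, 16.0 to 41.0%), 39.1% and 53.8%. Starts under 2000 bp apart can share a region, and both were open in 63.0% of those pairs. Gaps within clusters had a median of 7847 bp (interquartile range 5649 to 10726.5 bp), and with a joining distance of 5000 bp no group of 3 was left.

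Members close to the bounds were as follows. The gaps just inside 12.5 kb joined Tmem109 with Prpf19 (12488 bp), Nup43 with Lats1 (12367 bp) and Hdgf with Mrpl24 (12328 bp). Among gaps whose joining would have made or enlarged a cluster, those just outside were between Rell2 and Fchsd1 (12611 bp), Zfp119b and Gm16712 (12844 bp), and Map2k7 and Snapc2 (12876 bp). By distance to the TSS the outermost members were Sertad3 (821 bp), Klf16 (-713 bp) and U2af2 (-670 bp). Cd14 (1017 bp), Dennd4b (-1021 bp) and Gm12260 (-1672 bp) were the nearest left out among regions close enough to others to enter a cluster. Only 2 regions over 1 kb from a TSS lay inside the cluster spans, 1 assigned to Emilin1 (2386 bp) and 1 to Sertad1 (-5220 bp).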

How the data were processed

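The authors made 3 libraries for each of 3 genotypes from hearts and pharyngeal mesoderm (E8.75). Per the methods, reads were mapped to mm9 with bowtie2, properly paired primary alignments were kept, duplicates were removed with Picard (version 1.136), peaks were called per library with MACS14, blacklisted peaks were removed, and regions common to the replicates were found with bedtools (2.15), so replicates were combined. The deposited columns are positions, signed distance in bp to the TSS, a RefSeq transcript and a symbol. The methods name annotatePeaks.pl, which takes the closest TSS, for ChIP-Seq peaks and call the ATAC-Seq analysis similar, without naming it for these regions. A site needed a region in each of the 3 libraries to be listed, so a site that is not listed need not be closed.

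Rows with equal positions (17432 rows) were counted once. Sequence came from NCBIM37 (mm9) and starts from GENCODE vM1. Strand was found for 195 members, 180 by symbol, 14 by an older or newer symbol and 1 by a start within 100 bp. CpG of a gene is the highest over its starts, 500 bp to each side. Named were the 5 clusters with the most regions (ties by shorter span), 3 shortest, 3 with most covered bases, 3 widest and 3 narrowest members, and members near each bound. The members and lists were chosen with earlier results of these data known. Other genes were named from the lists or after their values were seen. Scripts (Python 3.11.15, pandas 2.3.3, scipy 1.17.1) were tested on simulated data. Alternatives are given in the closing section. No column of values was left unmapped (0 columns).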

Additional observations from a re-analysis of the deposited data

How the results depend on the processing

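No paired analysis was possible because the 3 libraries were merged into 1 list that gives none of them a value, and for the same reason no replicate could be left out. Of 84 recomputed values, 61 stayed within the interval of the reported value or, for counts, within 1.5 times of it, 22 moved and 1 reversed. The joining distance set the size of the set, with 0 members in 0 clusters (0%) at 5000 bp and 726 members in 207 clusters (7.99%) at 25000 bp. Gaps from center to center gave a share of 1.60%. Joining only regions no narrower than the median gave 39 members in 12 clusters (0.611%), a width difference of 18 bp, reversed in sign, and starts on both strands in 20.5%. Groups of 4 or more gave 35 members in 8 clusters (0.385%), a width difference of -80 bp and 20.8% divergent pairs. In 300 bp at the center the difference between members and lone regions was -4.67 percentage points in GC and -1.33 CpG per 100 bp, against -0.960 and -0.441 over whole regions. In 200 bp the shares of the NF-Y, ETS, GC box and Kaiso-type motifs were lower (32.0, 16.8, 56.9 and 0.508%), as a shorter window makes them. TSS bounds of 500 and 2000 bp, annotated coding starts, 3 or more different genes, autosomes only and leaving out histone genes, the last chosen after seeing the data, moved none of the 7 values recomputed under each. The cause of these changes was not tested, apart from the fewer or more regions each setting leaves.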

Other observations

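The following clusters were picked after their values were seen and show the range of genes that were joined. Nup43 (a nuclear pore subunit) and Lats1 (a Hippo kinase) had regions 12367 bp apart on chromosome 10. Eif4a1 and Eif5a, both translation factors, lay in different clusters of chromosome 11 within 260.2 kb. Hdac10 (a deacetylase) stood with Tubgcp6 (a gamma-tubulin complex subunit) and Mapk12 (a p38 kinase) in a span of 18807 bp on chromosome 15. Uhrf1, which maintains DNA methylation, stood with Ticam1 and Plin3 in the cluster of chromosome 17 with a median of 2.76 CpG per 100 bp, while the cluster of Hdgf, Mrpl24 and Isg20l2 on chromosome 3 had 7.91.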
